A study of Mus musculus with 57 samples.

Results

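Imprinted growth-control genes are genes expressed mainly from the copy inherited from 1 parent, and they set how far embryonic and placental cells grow. The 10 genes described here were H19, Igf2, Igf2r, Grb10, Cdkn1c, Phlda2, Plagl1, Mest, Peg10 and Dlk1, named as a list with earlier results of these data known, out of 55450 genes in the count tables. Of the 10, 9 had at least 1 count, against 37716 of the 55450, and the remaining 1 was Igf2. The cells were mouse embryonic stem cells of the Sox1-EGFP/FoxA2mCherry line, a reporter line grown from a single sorted cell in which EGFP replaces Sox1 on 1 allele and mCherry is joined to the 3′ end of FoxA2, so the library replicates all come from 1 clone. Cells kept in SerumLIF gave the D0 libraries, which hold Sox1-FoxA2- cells alone. Cells given 1 uM retinoic acid in N2B27 medium were sorted at D2, D4 or D6 into Sox1-FoxA2-, Sox1-FoxA2+, Sox1+FoxA2- and Sox1+FoxA2+ populations. Progeny libraries came from cells sorted at D2 as Sox1-FoxA2+, Sox1+FoxA2- or Sox1+FoxA2+, replated in retinoic acid with a serum basal medium lacking LIF, and harvested at D4 or D6 without a further sort. Each of the 19 conditions had 3 libraries, 57 in all, of which 39 were sorted and 18 were progeny. The study calls its replicates biological, while the labels do not say whether they came from separate cultures, so p-values measure the spread between these libraries.

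Imprints are for the most part DNA methylation marks laid down in the egg or the sperm and kept on 1 parental copy after fertilisation. Many of the genes they control act on 1 growth pathway: IGF2 is a growth factor made from the paternal copy, IGF2R removes it from the cell surface, and GRB10 dampens signalling from the insulin and IGF1 receptors. Others restrain division (CDKN1C), limit placental growth (PHLDA2), encode transcription factors (PLAGL1) or were taken from retrotransposons for use in the placenta (PEG10). None of the libraries here separates the 2 parental copies, so every value is a sum over both.

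The smallest library held 10170632 counts and the largest 81845651 (median 36694379), and the median number of genes detected was 20390. Foxa2, 1 of the 2 genes behind the gates, was at 1090 to 3300 normalised counts in the Sox1-FoxA2+ libraries of all 5 sampled stages and at 0 to 403 in the Sox1+FoxA2- libraries. The Sox1+FoxA2+ libraries of D6 were at 0 to 728 for Foxa2 and overlapped the FoxA2-negative gates of that day. Sox1 had 0 counts in all 57 libraries and could not check its gate, because its whole span lies inside another annotated gene, a point that also decides what can be said of Igf2. A normalised count is a count divided by the DESeq2 size factor of its library. Bulk libraries cannot tell fewer cells of a type from less RNA per cell.

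3 of the 10 genes hold a microRNA inside their span, and the mature sequences are shown. Mir675 lies in H19, Mir483 in Igf2 and Mir335 in Mest, and each had 0 counts in all 57 libraries. RNAs this short may not enter such libraries at all, so these 0 counts cannot show what the counting removed. The mature sequences (RefSeq, GRCm38.p6, 5′ to 3′) are given with the seed, bases 2 to 8, in capitals.
mmu-miR-675-5p: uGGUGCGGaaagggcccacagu
mmu-miR-675-3p: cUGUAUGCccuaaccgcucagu
mmu-miR-483-5p: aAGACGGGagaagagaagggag
mmu-miR-483-3p: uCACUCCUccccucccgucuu
mmu-miR-335-5p: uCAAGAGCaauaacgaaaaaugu
mmu-miR-335-3p: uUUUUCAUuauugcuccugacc
No seed is shared among the 6.

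Igf2 could not be measured. It lies at chr7:142650766-142666816 (GRCm38, minus strand), and 16048 of its 16051 bases, or 99.9% of its exon bases, fall inside the span of Gm49394, annotated as a protein-coding gene on the same strand. Gm49394 also had 0 counts, and Igf2os, the antisense transcript over 7124 of the Igf2 bases, had 194 counts in 10 libraries. The same held across the table: none of the 13127 genes whose span lies wholly inside other gene spans had a count, 1351 protein-coding genes among them, whereas 25743 of 29978 genes with no overlap had counts (85.9%). Nested genes that share no exon with their neighbour were at 0 on the same strand (4782 genes) and on the opposite strand (4380 genes) alike. These zeros are what assignment over whole gene spans without regard to strand gives, so the 0 listed for Igf2 cannot be read as absence of its RNA.

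**Figure D1:**
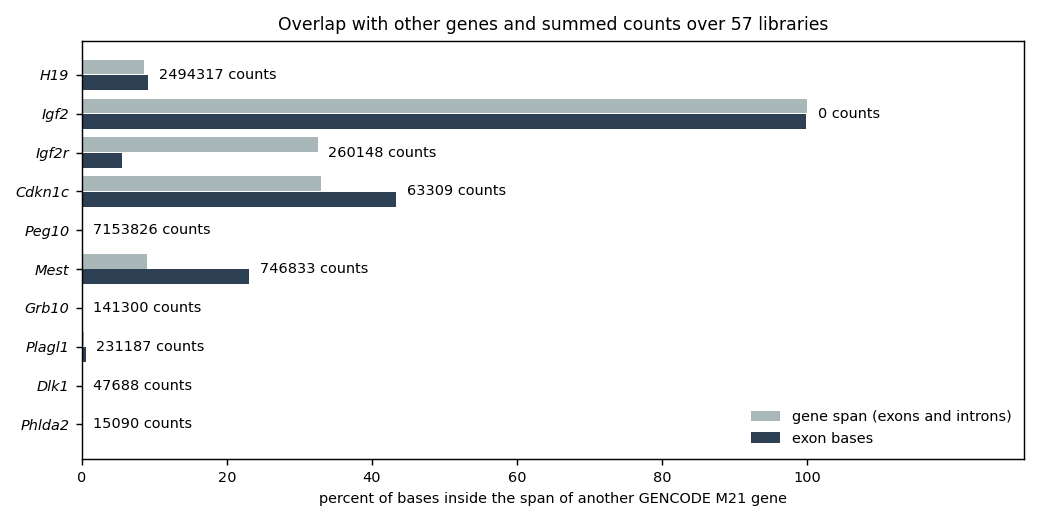
Percent of each gene's span (grey) and exon bases (dark) that lies inside another gene, for the 10 genes, with the counts summed over 57 libraries. Igf2 is at 100% and 0 counts, Cdkn1c at 43.3% of exon bases and Mest at 23.1%, while Peg10, Grb10, Dlk1 and Phlda2 show no overlap.

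The other 9 genes kept part or all of their exon bases. Where reads are assigned over whole spans, reads from introns count too, and the overlap of the span also bears on the loss. H19 (chr7:142575529-142578143, minus strand), a non-coding RNA made from the maternal copy beside Igf2, has 9.15% of its exon bases inside Mir675 and 2 short RNA genes. Igf2r (chr17:12682406-12769664, minus strand) has 32.5% of its span but 5.58% of its exon bases under Airn, the antisense RNA that silences the paternal copy. Cdkn1c (chr7:143458339-143461050, minus strand) has 43.3% of its exon bases inside Gm44732, an antisense gene with 0 counts. Mest (chr6:30723547-30748465, plus strand) shares its last 912 bases, 23.1% of its exon bases, with the opposite-strand gene Copg2. Plagl1 (chr10:13060504-13131694, plus strand) loses 0.486%. Grb10 (chr11:11930508-12038683, minus strand), Peg10 (chr6:4747306-4760517, plus strand), Dlk1 (chr12:109452823-109463336, plus strand) and Phlda2 (chr7:143501545-143503150, minus strand) overlap nothing. A loss of reads in the same share in every library would lower all levels of a gene alike. Whether that share differed between conditions was not tested, for Mest and Cdkn1c in particular. The comparisons between conditions below use the counts as deposited.

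Per kilobase of exon, H19 and Peg10 stood highest and Dlk1 spanned the widest range. Counts assigned over whole spans can include intron reads, so dividing by exon length gives only a rough order between genes. At D0 the mean normalised counts per kilobase were 2810 for Peg10, 1170 for H19, 611 for Mest, 270 for Phlda2, 238 for Cdkn1c, 218 for Igf2r, 153 for Grb10, 130 for Plagl1 and 0.244 for Dlk1. In the progeny of Sox1+FoxA2- cells at D4 they were 59800 for H19, 28700 for Peg10, 4990 for Mest, 1600 for Plagl1, 1510 for Cdkn1c, 568 for Dlk1, 460 for Igf2r, 123 for Grb10 and 118 for Phlda2. Over all libraries Peg10 took 0.326% of all counts and H19 0.114%. Per unshared exon base the D0 level of Cdkn1c becomes 419 in place of 238, and that of Mest 795 in place of 611.

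**Figure D2:**
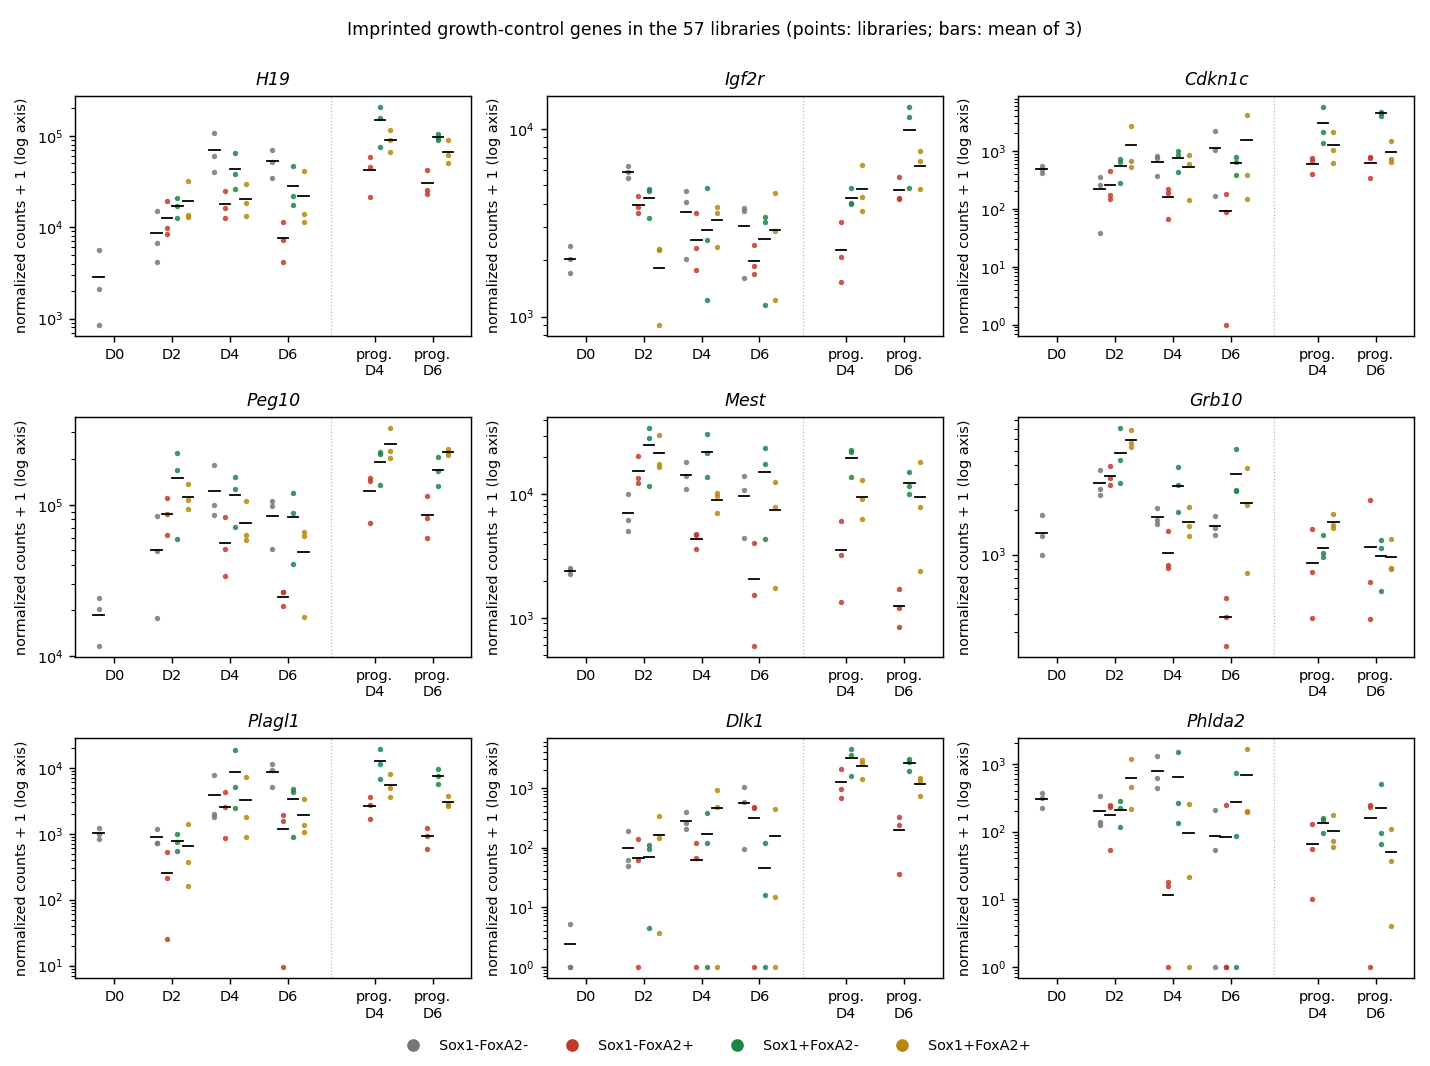
Normalised counts plus 1 (log axis) of the 9 measured genes in every library, by day and arm (x axis) and sorted population (colour), with black bars for the mean of 3 libraries. H19 runs from 859 at D0 to 208000 in the progeny, and the Sox1-FoxA2+ libraries (red) lie below the Sox1+FoxA2- libraries (green) for Mest from D4 on.

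Ordering the 19 conditions by mean level placed 6 of the 9 genes at their highest in the progeny and 2 (Mest and Grb10) in D2 cells, and all neighbouring conditions in these orders had overlapping libraries except 1 pair for Mest. H19 was highest in the D4 progeny of Sox1+FoxA2- cells (mean 147000) and lowest at D0 (2870), and its library values ran from 859 to 208000. Igf2r varied least, from 1820 in D2 Sox1+FoxA2+ cells to 9810 in the D6 progeny of Sox1+FoxA2- cells. Grb10 went from 5920 in D2 Sox1+FoxA2+ cells down to 378 in D6 Sox1-FoxA2+ cells.
Cdkn1c, the inhibitor of cyclin-dependent kinases, was lowest in D6 Sox1-FoxA2+ cells at 89.3 and highest in the D6 progeny of Sox1+FoxA2- cells at 4440. Phlda2, not scaled for its length, ranged from 10.6 in D4 Sox1-FoxA2+ cells to 790 in D4 Sox1-FoxA2- cells, with 7 libraries at 0. These 2 genes and Dlk1 were the only ones of the 9 with a library at 0.
Plagl1, a zinc finger transcription factor, ranged from 252 in D2 Sox1-FoxA2+ cells to 12500 in the D4 progeny of Sox1+FoxA2- cells. Mest, a gene of the alpha/beta hydrolase fold family made from the paternal copy, ranged from 1240 in the D6 progeny of Sox1-FoxA2+ cells to 25000 in D2 Sox1+FoxA2- cells, and its separated neighbours were D2 Sox1-FoxA2- cells (5050 to 10000) and D4 Sox1-FoxA2+ cells (3580 to 4780). Peg10 ranged from 18700 at D0 to 250000 in the D4 progeny of Sox1+FoxA2+ cells. Dlk1, a transmembrane relative of Notch ligands, ranged from 1.38 at D0 to 3210 in the D4 progeny of Sox1+FoxA2- cells, with 9 libraries at 0.

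The first comparison asked how the endoderm-marked Sox1-FoxA2+ cells differed from the neuroectoderm-marked Sox1+FoxA2- cells. At D2 none of the 9 genes passed the test (edgeR quasi-likelihood, Benjamini-Hochberg over all genes tested), where 0.00491% of the 20369 genes tested were called. The median log2 fold change of the 9 was -0.48 against -0.02 over all genes. At an unadjusted p under 0.05 the count was also 0, where 5.06% of all genes tested were, the smallest edgeR p being 0.0847 for Mest, and DESeq2 called 0 (1.54% of all genes). The libraries did not overlap for 1 gene, Plagl1, against 10.1% of all genes tested. With no filter on low counts Peg10 alone was called, at -0.73 with an edgeR adjusted p of 0.00122, in a fit whose limit is given in the last section.

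At D4 Mest was lower in Sox1-FoxA2+ cells, the 1 gene of the 9 past the threshold, and the other 8 also had negative log2 fold changes. Mest had 4660, 3580 and 4780 normalised counts in the 3 Sox1-FoxA2+ libraries and 31100, 21800 and 13800 in the Sox1+FoxA2- libraries, which did not overlap. Its log2 fold change was -2.36 ± 0.37 (SE, n = 3 and 3, adjusted p = 0.00152 by edgeR quasi-likelihood), and 0.266% of all genes tested were called on this day and 0.061% were called lower (61 genes in all, or 144 with the replicate number as a block). The libraries of the 2 populations did not overlap for 5 of the 9 genes, as was so for 11.4% of all genes tested. Phlda2 was at 14.8, 16.9 and 0 in Sox1-FoxA2+ cells and at 264, 131 and 1500 in Sox1+FoxA2- cells, and the difference did not pass the test (adjusted p = 0.458), although these libraries do not overlap and Phlda2 was called by DESeq2 (-5.82, adjusted p = 0.015) and by edgeR with no filter on low counts (adjusted p = 0.0199). The fit with no filter has a limit given in the last section. The median of the 9 was -1.52 against -0.10 over all genes. The summed level of 12 mesenchyme markers was 10500 to 14100 in Sox1-FoxA2+ cells and 565 to 6730 in Sox1+FoxA2- cells, but none of the 12 was called and 4 had a positive log2 fold change (median -0.22). Of the 5 endoderm markers 1 was called higher (Gata6), and of the 5 neuroectoderm markers 1 was called lower (Pax6). The part of these markers in the Mest difference was not tested. The Mest call held without any 1 library, and was lost in a fit to all 57 libraries (adjusted p = 0.223).

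At D6 Grb10 was the gene past the threshold. It had 381, 511 and 243 normalised counts in the Sox1-FoxA2+ libraries and 2680, 5100 and 2740 in the Sox1+FoxA2- libraries. No Sox1-FoxA2+ library reached a Sox1+FoxA2- library, and the log2 fold change was -3.02 ± 0.57 (SE, n = 3 and 3, edgeR adjusted p = 0.00236). On this day 1.32% of all genes tested were called and 0.318% were called lower (319 genes in all, or 517 with the replicate block).
Same-numbered libraries of these 2 populations deviated together, and with the replicate number as a block H19, Peg10 and Mest were also called lower, at log2 fold changes of -1.72, -1.44 and -2.80 with adjusted p of 4.6e-04, 3.9e-04 and 3.8e-06 (edgeR). Libraries did not overlap for 5 of the 9 genes, against 23.2% of all genes tested. Without the block the same 3 genes gave adjusted p of 0.109, 0.136 and 0.371. H19 was at 7320, 11300 and 4140 in Sox1-FoxA2+ cells and at 46500, 22000 and 17300 in Sox1+FoxA2- cells, with no overlap. The Grb10 call held without any 1 library, while H19 was called without replicate 2 of the Sox1-FoxA2+ cells (adjusted p = 0.0435) and Peg10 without replicate 3 of the Sox1+FoxA2- cells (0.0161).
Dlk1 alone had a positive log2 fold change, 2.91 ± 2.12 (SE), from libraries of 0, 478 and 455 against 118, 0 and 14.8. These values overlap and the adjusted p was 0.604. The median of the 9 was -1.57 against -0.30 over all genes, a shift of all genes that grew to -0.54 with the block. Over the same libraries the summed endoderm markers (5 genes) were at 35200 to 54300 in Sox1-FoxA2+ cells and 612 to 1020 in Sox1+FoxA2- cells, and the 12 mesenchyme markers at 9670 to 24400 and 2090 to 3580. Of the 12, Pdgfra alone was called (15300 against 251 normalised counts), and 4 had a positive log2 fold change (median -0.37). The part of these markers in the imprinted-gene differences was not tested.

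In the progeny the same contrast took in more genes. At D4, H19, Mest and Plagl1 were called lower in the progeny of Sox1-FoxA2+ cells, where 1.97% of all genes tested were called and 0.527% were called lower (408 genes in all, or 885 with the replicate block). H19 was at 58700, 46100 and 21500 against 208000, 158000 and 75800 in the progeny of Sox1+FoxA2- cells, a log2 fold change of -1.76 ± 0.37 (SE, n = 3 and 3, edgeR adjusted p = 0.0143). Plagl1 was at 1680, 3550 and 2680 against 11400, 19300 and 6680, a log2 fold change of -2.21 ± 0.40 (edgeR adjusted p = 0.00655). In both genes the 2 sets of libraries were apart, as they were for 5 of the 9 genes and 14.2% of all genes tested.
Mest was at 1350, 3240 and 6120 against 13900, 23000 and 22100, a log2 fold change of -2.45 ± 0.49 (edgeR adjusted p = 0.0193). All 9 genes had negative log2 fold changes, with a median of -1.39 against -0.02 over all genes. Same-numbered libraries deviated together here too, and with the block 7 of the 9 genes were called lower, adding Igf2r (-0.95, adjusted p = 0.0188), Cdkn1c (-2.04, 2.8e-04), Peg10 (-0.64, 0.026) and Dlk1 (-1.37, 0.00203) by edgeR.
The Plagl1 call held without any 1 library, and Cdkn1c and Dlk1 were called without replicate 3 of the Sox1+FoxA2- and of the Sox1-FoxA2+ progeny, in that order (adjusted p = 0.0212 and 0.0482). The H19 call was lost without replicate 1 or replicate 2 of the Sox1+FoxA2- progeny (adjusted p = 0.0518 and 0.0513), and the Mest call without any of the 3 Sox1+FoxA2- libraries or replicate 2 of the Sox1-FoxA2+ progeny (0.0899 to 0.222), while in a fit to all 57 libraries none of the 3 was called.

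At D6 of the progeny 7 of the 9 genes were called lower in the progeny of Sox1-FoxA2+ cells and none was called higher, where 6.91% of all genes tested were called and 3.32% were called lower. In both arms these comparisons share the Sox1+FoxA2- and the Sox1-FoxA2+ libraries with those of the Sox1+FoxA2+ cells below. The same libraries also enter the comparisons over time and of progeny against sorted cells. Calls in these comparisons are therefore not separate support. Plagl1 was at 586, 1230 and 930 normalised counts against 7600, 9610 and 5580, and Cdkn1c at 343, 764 and 769 against 4520, 4030 and 4770. The log2 fold changes were -3.10 ± 0.30 for Plagl1 (adjusted p = 2.5e-05) and -2.88 ± 0.37 for Cdkn1c (adjusted p = 2.1e-04, edgeR, SE, n = 3 and 3).
Dlk1 was at 34.5, 239 and 325 against 1950, 2680 and 3070, a log2 fold change of -3.74 ± 0.65 (edgeR adjusted p = 0.00535). H19 was at 42500, 23300 and 25700 against 93500, 90900 and 106000, a log2 fold change of -1.70 ± 0.28 (edgeR adjusted p = 0.00129). Neither gene had a library of 1 group within the range of the other.
Mest was at 1190, 844 and 1700 against 10100, 11700 and 15300, a log2 fold change of -3.36 ± 0.66 (edgeR adjusted p = 0.0154). Peg10 was at 114000, 60700 and 81200 against 208000, 133000 and 166000, a log2 fold change of -1.02 ± 0.26 (edgeR adjusted p = 0.026). Igf2r, at 4240, 4290 and 5550 against 11500, 13100 and 4830, was the 1 called gene whose libraries overlapped (6 of the 9 genes did not overlap, against 26.1% of all genes tested), with a log2 fold change of -1.12 ± 0.32 (edgeR adjusted p = 0.0477). That call was lost with RLE scaling (0.055), with the replicate block (0.0954), with only the groups compared (0.0814), with robust estimation off (0.057), with counts halved (0.0526) and in a fit to all 57 libraries (0.393). The Peg10 call was also lost with only the groups compared (edgeR adjusted p = 0.0797).
Grb10 was not called here, at 2330, 654 and 366 against 1250, 1100 and 566, with a log2 fold change of 0.18 ± 0.59 (edgeR adjusted p = 0.954). The growth-factor adaptor thus had its lowest level in sorted D6 Sox1-FoxA2+ cells, but overlapping levels in the D6 progeny. The test of the difference between the 2 arms gave 3.29 ± 0.83 on the log2 scale for Grb10 and did not pass the threshold in edgeR (adjusted p = 0.179), whereas DESeq2 called it, with 4.95% of all genes called. None of the 9 genes was called by edgeR in this difference at D4 or at D6, where 0% and 0.0196% of all genes tested were, with 0 and 2 at an unadjusted p under 0.05 (4.81% and 11.2% of all genes).
The calls of H19, Cdkn1c, Plagl1 and Dlk1 held without any 1 library. The Mest call was lost without any 1 of the 6 libraries (adjusted p = 0.0838 to 0.119), the Igf2r call without any but replicate 3 of the Sox1+FoxA2- progeny (0.0919 to 0.253), and the Peg10 call without replicate 1 of the Sox1+FoxA2- or replicates 2 or 3 of the Sox1-FoxA2+ progeny (0.0819 to 0.153). In a fit to all 57 libraries Mest alone was called.

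**Figure D3:**
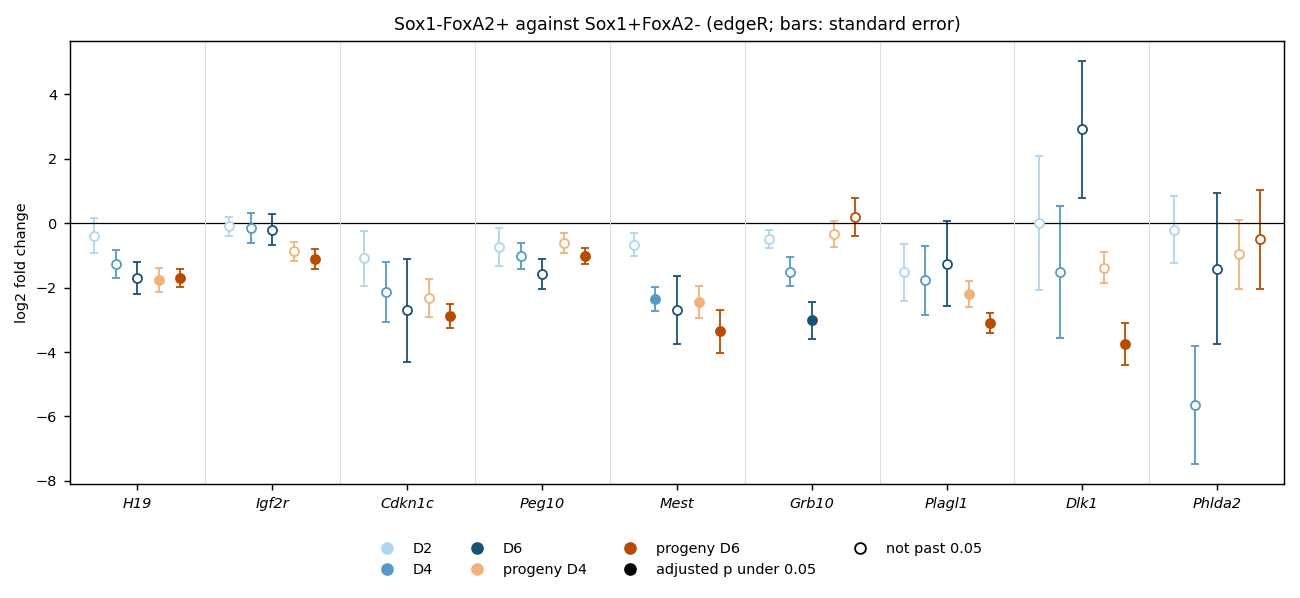
Log2 fold change of Sox1-FoxA2+ against Sox1+FoxA2- libraries for the 9 measured genes (y axis), at D2, D4, D6 and in the progeny of D4 and D6, with bars for the standard error and filled points for an adjusted p under 0.05. Most points lie below 0, with Grb10 at -3.02 in sorted D6 cells and at 0.18 in the D6 progeny.

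Markers of other cell types moved with these gene differences. Of 12 mesenchyme markers, 3 were called lower in the D6 progeny of Sox1-FoxA2+ cells (Postn, Acta2 and Twist1) and 1 higher (Pdgfra). Their summed level was 14000 to 40200 normalised counts there and 67700 to 113000 in the progeny of Sox1+FoxA2- cells, with none of the 12 at 0 in either. The 5 neuroectoderm markers were all called lower, with summed levels of 6030 to 9290 against 36000 to 66500, and the 5 endoderm markers were all called higher. In the D4 progeny, 4 mesenchyme markers were called lower (Prrx1, Col1a2, Twist1 and Acta2) and 1 higher (Pdgfra), with summed levels of 22700 to 38000 against 46100 to 98000. There 2 neuroectoderm markers were lower (Sox9 and Meis2) and 3 endoderm markers higher (Sox7, Gata4 and Gata6). The part of these other cells in the levels of the imprinted genes was not tested.

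The promoters of the 4 genes with the largest called differences between these populations are shown. Each sequence (RefSeq, GRCm38.p6, 250 bases before the transcript start, 5′ to 3′ on the strand of the gene) has its CpG pairs in capitals. Methylation was not measured, and the windows were not matched to imprinted regions. RefSeq gives several entries for 2 of the 4, and the entry with the most CpG pairs is shown (the first where these are equal).
Mest, chr6:30737800-30738049, plus strand: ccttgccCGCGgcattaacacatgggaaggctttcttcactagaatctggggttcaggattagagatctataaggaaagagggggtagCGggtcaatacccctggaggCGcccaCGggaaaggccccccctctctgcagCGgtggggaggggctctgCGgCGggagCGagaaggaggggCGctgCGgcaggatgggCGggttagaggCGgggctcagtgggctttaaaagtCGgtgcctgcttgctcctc
Grb10, chr11:12037421-12037670, minus strand: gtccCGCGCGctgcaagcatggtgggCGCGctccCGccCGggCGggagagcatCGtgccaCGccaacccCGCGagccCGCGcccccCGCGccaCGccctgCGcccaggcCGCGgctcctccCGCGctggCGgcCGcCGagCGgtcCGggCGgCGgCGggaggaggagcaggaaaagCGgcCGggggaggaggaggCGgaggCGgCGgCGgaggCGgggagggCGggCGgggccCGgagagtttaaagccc
Plagl1, chr10:13090582-13090831, plus strand: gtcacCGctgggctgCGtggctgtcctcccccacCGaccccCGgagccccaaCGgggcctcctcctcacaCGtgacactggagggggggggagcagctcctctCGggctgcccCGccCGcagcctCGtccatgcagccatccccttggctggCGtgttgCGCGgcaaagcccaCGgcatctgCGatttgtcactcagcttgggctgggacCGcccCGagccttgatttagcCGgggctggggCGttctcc
Dlk1, chr12:109452573-109452822, plus strand: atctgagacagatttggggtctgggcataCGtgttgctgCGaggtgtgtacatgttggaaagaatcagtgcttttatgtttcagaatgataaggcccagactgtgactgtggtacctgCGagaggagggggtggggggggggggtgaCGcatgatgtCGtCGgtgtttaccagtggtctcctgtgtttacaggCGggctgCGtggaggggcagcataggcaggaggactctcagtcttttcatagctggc
The 4 windows hold 14, 40, 19 and 8 CpG pairs, against a median of 6 and quartiles of 2 and 16 over 32851 RefSeq mouse promoters. Grb10's printed window is the CpG-richest, with 98.7% of promoters holding fewer, while its other entry holds 8 (57%). The other 2 entries of Mest hold 7 and 14. RefSeq promoter entries were matched for 7 of the 10 genes, 13 entries in all. The letters AGGTCA, the half-site of nuclear receptors that include the retinoic acid receptors, occur on either strand in 14% of promoters of this length, in 1 of the 4 entries of Igf2 and in the entry of Igf2r, and in none of the 4 printed windows. The letters GGGGCCCC, searched on both strands, occur in 0.889% of promoters and in none of the 13 entries.

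The Sox1+FoxA2+ population was set against each single-positive population at D6. Against Sox1+FoxA2- cells, none of the 9 genes was called in sorted cells, where 0.0496% of all genes tested were, and none had an unadjusted p under 0.05 in edgeR (4.43% of all genes) or a call in DESeq2 (1.22%). None had libraries that did not overlap, against 8.99% of all genes tested. In the progeny 1 was called, where 0.18% of all genes tested were and 0.019% were called lower. Cdkn1c, at 714, 630 and 1470 normalised counts in the Sox1+FoxA2+ progeny and 4520, 4030 and 4770 in the Sox1+FoxA2- progeny, was lower by -2.29 ± 0.36 on the log2 scale (SE, n = 3 and 3, edgeR adjusted p = 0.0166). The 2 sets of libraries were apart, as for 5 of the 9 genes and 16.5% of all genes tested. Plagl1, at 3690, 2870 and 2620 against 7600, 9610 and 5580, gave -1.38 ± 0.28 (edgeR adjusted p = 0.0826) and was called by DESeq2, with 2.29% of all genes called. Of the 5 endoderm markers 2 were called higher in this comparison, with none of the neuroectoderm or mesenchyme markers called, and their part was not tested. The Cdkn1c call held without replicate 3 of the Sox1+FoxA2+ progeny and was lost without any of the other 5 libraries (adjusted p = 0.0654 to 0.101) and in a fit to all 57 (adjusted p = 1).

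Against Sox1-FoxA2+ cells, none of the 9 was called in sorted D6 cells, where 0.0909% of all genes tested were, and Grb10 came nearest at 2.13 ± 0.55 on the log2 scale (SE, edgeR adjusted p = 0.131). At an unadjusted p under 0.05 the count was 3 (14.2% of all genes), and DESeq2 called 2 (8.55%). Grb10 was called without replicate 2 of the Sox1+FoxA2+ cells (adjusted p = 0.00808). Grb10 libraries were at 3810, 755 and 2150 in Sox1+FoxA2+ cells and at 381, 511 and 243 in Sox1-FoxA2+ cells, with no overlap, 1 of 2 such genes (with H19) where 11.5% of all genes tested were so. In the D6 progeny 5 of the 9 genes were called higher in the Sox1+FoxA2+ progeny and none lower, where 4.63% of all genes tested were called and 2.28% were called higher.
Peg10 was at 224000, 212000 and 234000 against 114000, 60700 and 81200, a log2 fold change of 1.37 ± 0.26 (SE, n = 3 and 3, edgeR adjusted p = 0.00723). Plagl1, with the values given above for both groups, differed by 1.72 ± 0.29 (edgeR adjusted p = 0.00286). These 2 calls held without any 1 library.
H19, at 88900, 49900 and 62400 against 42500, 23300 and 25700, differed by 1.11 ± 0.28 (edgeR adjusted p = 0.0307). Mest, at 2390, 7950 and 18400 against 1190, 844 and 1700, differed by 2.95 ± 0.65 (edgeR adjusted p = 0.0366). Dlk1, at 726, 1330 and 1480 against 34.5, 239 and 325, differed by 2.57 ± 0.62 (edgeR adjusted p = 0.0423).
None of the 5 had overlapping libraries, as was so for 21.3% of all genes tested. Cdkn1c, lower than in the Sox1+FoxA2- progeny in both other populations, differed here by 0.58 ± 0.35 (edgeR adjusted p = 0.452). The H19 call was lost without replicate 2 or 3 of the Sox1-FoxA2+ or replicate 1 of the Sox1+FoxA2+ progeny (adjusted p = 0.108 to 0.153), the Mest call without any but replicate 1 of the Sox1+FoxA2+ progeny (0.0558 to 0.188), and the Dlk1 call without any but replicate 1 of the Sox1-FoxA2+ progeny (0.0722 to 0.188). In a fit to all 57 libraries none of the 5 was called. Same-numbered Sox1+FoxA2+ and Sox1-FoxA2+ progeny libraries deviated together here. With the replicate number as a block all 5 were called higher (edgeR adjusted p from 0.00209 for Peg10 to 0.0176 for Mest). The share of all genes called with that block is not given here. In the same comparison 4 of the 5 neuroectoderm markers were called higher (Sox9 3.21, Cpe 2.49, Meis2 2.04 and Nes 1.58 on the log2 scale) and all 5 endoderm markers lower (from Sox7 at -2.85 to Sox17 at -2.03). Of 12 mesenchyme markers 1 was called lower (Pdgfra), while 8 had a positive log2 fold change (median 1.30). The part of all these markers in the imprinted-gene differences was not tested.

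Change over time was read within each gate. From D0 to D2 in Sox1-FoxA2- cells, that is on leaving SerumLIF for retinoic acid, 3 of the 9 genes were called higher, where 1.93% of all genes tested were called and 1.08% were called higher. Igf2r was at 2020, 1700 and 2370 normalised counts at D0 and 5870, 5480 and 6350 at D2, a log2 fold change of 1.58 ± 0.34 (SE, n = 3 and 3, edgeR adjusted p = 0.0192). Mest went from 2270, 2540 and 2420 to 10000, 6260 and 5050, a log2 fold change of 1.59 ± 0.35 (edgeR adjusted p = 0.023). Neither gene had overlapping libraries, nor did 5 of the 9 genes in all, against 24% of all genes tested.
Dlk1 had 0, 0 and 4.13 normalised counts at D0 and 61.2, 187 and 48.1 at D2. The raw counts were 2 against 432, a depth-adjusted ratio of 148. With mates taken as 1 fragment (1 against 216) its exact 95% interval is 26.2 to 5.86e+03 and covers counting error only, and the edgeR adjusted p was 0.0399. Dlk1 was thus near its floor in the undifferentiated cells and above it in each D2 library.
The Igf2r call was lost without replicate 1 of D0 or replicates 1 or 3 of D2 (adjusted p = 0.0535 to 0.0651), the Mest call without replicate 1 or 3 of D0 or replicate 1 of D2 (0.0862 to 0.114), and the Dlk1 call without any but replicate 3 of D0 (0.0567 to 0.121). In a fit to all 57 libraries Igf2r alone was called.

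From D2 to D6 the Sox1-FoxA2+ cells were the 1 gate with calls. Of the 9 genes, 3 fell, where 2.23% of all genes tested were called and 0.711% were called lower. Grb10 went from 3920, 3250 and 2960 at D2 to 381, 511 and 243 at D6, a log2 fold change of -3.26 ± 0.44 (SE, n = 3 and 3, edgeR adjusted p = 2.8e-04). Peg10 went from 111000, 87100 and 62800 to 26400, 26400 and 21300, a log2 fold change of -1.93 ± 0.33 (edgeR adjusted p = 0.00241). In both the D6 libraries lay wholly below the D2 libraries, and 4 of the 9 genes did not overlap, against 17.5% of all genes tested.
Mest went from 13700, 12300 and 20700 to 1540, 4010 and 592, a log2 fold change of -3.00 ± 0.57 (edgeR adjusted p = 0.0162). The Mest call was lost without replicate 1 of D6 or replicates 1 or 3 of D2 (adjusted p = 0.0572 to 0.122), and the Peg10 call in a fit to all 57 libraries (adjusted p = 0.0733).
In Sox1-FoxA2- cells none of the 9 was called, where 0.0188% of all genes tested were (4 genes, or 8 with the replicate block). The nearest was Plagl1, at 728, 1180 and 721 at D2 and 9380, 5180 and 11500 at D6, with a log2 fold change of 3.24 ± 0.54 (edgeR adjusted p = 0.0972). The libraries were apart, 5 of the 9 had an unadjusted p under 0.05 (6.83% of all genes), and DESeq2 called 3 (2.24%), Plagl1 among them. Plagl1 was called by edgeR without replicate 2 of D6 (adjusted p = 0.0393). None was called by edgeR in Sox1+FoxA2- cells (0% of all genes tested) or in Sox1+FoxA2+ cells (0.126%), where 1 and 3 genes had an unadjusted p under 0.05 (11.4% and 13.9% of all genes) and DESeq2 called 0 in each (6.21% and 10.2%). In Sox1+FoxA2+ cells Peg10 and Mest were called lower at D6 without replicate 2 of D2 (adjusted p = 0.0373 and 0.034) or without replicate 2 of D6 (0.0383 and 0.00508). Libraries of the 2 days did not overlap for 4 of the 9 genes in Sox1-FoxA2- cells, 0 in Sox1+FoxA2- cells and 3 in Sox1+FoxA2+ cells, against 15.2%, 25.2% and 15.2% of all genes tested. A gate with calls and a gate without were not tested against each other.
Between D4 and D6 of the progeny none was called in the progeny of Sox1-FoxA2+, Sox1+FoxA2- or Sox1+FoxA2+ cells, where 0.341%, 0.0125% and 0.0916% of all genes tested were. By unadjusted p under 0.05 the counts were 4, 1 and 1 (8.17%, 6.58% and 5.77% of all genes), and DESeq2 called 2, 0 and 0 (3.22%, 0.548% and 0.609%). Libraries did not overlap for 3, 1 and 1 of the 9 genes, against 11.2%, 11.8% and 11.8% of all genes tested. In the progeny of Sox1-FoxA2+ cells Plagl1 came nearest, at 1680, 3550 and 2680 and then 586, 1230 and 930 (log2 fold change -1.54 ± 0.39, edgeR adjusted p = 0.103). Igf2r was called higher at D6 in the progeny of Sox1+FoxA2- cells without replicate 3 of D6 (adjusted p = 0.014).

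The last comparison set the progeny against cells sorted on the same day, in 1 fit over the 3 gates that both arms share. Its 9 libraries per arm were 3 gates of 3 replicate numbers, taken as independent. Same-numbered Sox1-FoxA2+ and Sox1+FoxA2- libraries deviated together in both arms at D4 and in the sorted arm at D6. The p-values of this comparison can therefore be too small. Several of the 9 genes were higher in the progeny and none was called lower. The arms differ in replating, in the basal medium and in the lack of a second sort, which cannot be told apart. Depth was 10170632 to 81845651 counts in the 9 progeny libraries of D4 and 24907988 to 56755617 counts in the 9 sorted ones, and 10474804 to 76784146 against 21995880 to 48829405 counts at D6.
At D4, 4 of the 9 were called higher, where 7.45% of all genes tested were called and 4.55% were called higher. H19 averaged 93200 normalised counts in the progeny and 27300 in the sorted cells, a log2 fold change of 1.86 ± 0.27 (SE, n = 9 and 9, edgeR adjusted p = 6.1e-05). Its libraries were apart in the Sox1+FoxA2- gate (75800 to 208000 against 26400 to 65500) and in the Sox1+FoxA2+ gate (65900 to 115000 against 13200 to 29900), and overlapped in the Sox1-FoxA2+ gate (21500 to 58700 against 12500 to 25200).
Peg10 averaged 188000 against 82600 (log2 fold change 1.36 ± 0.26, edgeR adjusted p = 0.00108), and Cdkn1c 1650 against 482 (1.92 ± 0.38, edgeR adjusted p = 0.00143). Dlk1 averaged 2260 against 230, a log2 fold change of 3.89 ± 1.10 (edgeR adjusted p = 0.0454). In each of the 3 gates every Dlk1 progeny library was above every sorted library: 667, 954 and 2090 against 66.7, 0 and 117 in Sox1-FoxA2+, 1570, 4500 and 3570 against 120, 375 and 0 in Sox1+FoxA2-, and 1420, 2970 and 2600 against 0, 910 and 478 in Sox1+FoxA2+.
The Dlk1 call was lost in 14 of the 18 fits that left out 1 library (adjusted p = 0.0539 to 0.0837), and stayed without replicate 1 or 2 of the sorted Sox1+FoxA2+, replicate 2 of the sorted Sox1-FoxA2+ or replicate 3 of the sorted Sox1+FoxA2- cells. Cdkn1c was not called in a fit to all 57 libraries (adjusted p = 0.0556).

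At D6, 3 of the 9 were called higher in the progeny, where 13.6% of all genes tested were called and 7.81% were called higher. H19 averaged 64800 against 19400, a log2 fold change of 2.03 ± 0.24 (SE, n = 9 and 9, edgeR adjusted p = 2.7e-06). Peg10 averaged 159000 against 52000, a log2 fold change of 1.90 ± 0.25 (edgeR adjusted p = 2.6e-05). Igf2r averaged 6960 against 2480, a log2 fold change of 1.70 ± 0.25 (edgeR adjusted p = 6.2e-05).
Within each of the 3 gates the progeny libraries of these genes lay above the sorted ones. For Igf2r they were 4240 to 5550 against 1690 to 2400 in Sox1-FoxA2+, 4830 to 13100 against 1150 to 3380 in Sox1+FoxA2-, and 4780 to 7570 against 1220 to 4570 in Sox1+FoxA2+. The 3 calls held without any 1 of the 18 libraries. With the 3 gates pooled, none of the 9 genes had 9 progeny libraries apart from the 9 sorted ones at D4 or D6, against 0.936% and 1.05% of all genes tested.
Mest averaged 7730 against 8270 and Grb10 1020 against 2040, and neither was called (edgeR adjusted p = 1 and 0.706). Dlk1 averaged 1320 against 169 (3.21 ± 1.63, edgeR adjusted p = 0.215), its D6 sorted libraries running from 0 to 478. Cdkn1c was called at D6 without replicate 2 of the sorted Sox1+FoxA2+ cells (adjusted p = 0.00144), which stood at 4120 where the other 8 sorted libraries were at 0 to 797. The median log2 fold change of all genes was -0.15 at D6, and -0.35 with RLE scaling in place of TMM.
Mesenchyme markers also rose with the arm. Of 12, 3 were called higher at each day (Col1a1, Col3a1 and Acta2) and none lower. Their summed level was 22700 to 98000 in the progeny of D4 and 565 to 14100 in the sorted cells, and 14000 to 113000 against 2090 to 24400 at D6, with none of the 12 at 0 in these conditions. Of 8 trophoblast markers, 7 of them tested, 2 were called higher at D4 (Gata3 and Krt7) and 1 at D6 (Gata3). The log2 fold change was positive for 3 of the 7 at D4 (median -0.23) and for 4 at D6 (median 1.26). Of 5 neuroectoderm markers, 3 were higher at D4 (Sox9, Nes and Cpe) and 4 at D6 (Meis2 also), and Pax6 was lower at both days (-1.36 and -2.14 on the log2 scale). Of 5 endoderm markers 1 was higher at D4 (Gata6) and none was called at D6. Of 5 pluripotency markers 1 was lower at D4, and 1 was higher and 3 lower at D6. The part of these cells in the progeny levels of the imprinted genes was not tested.

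**Figure D4:**
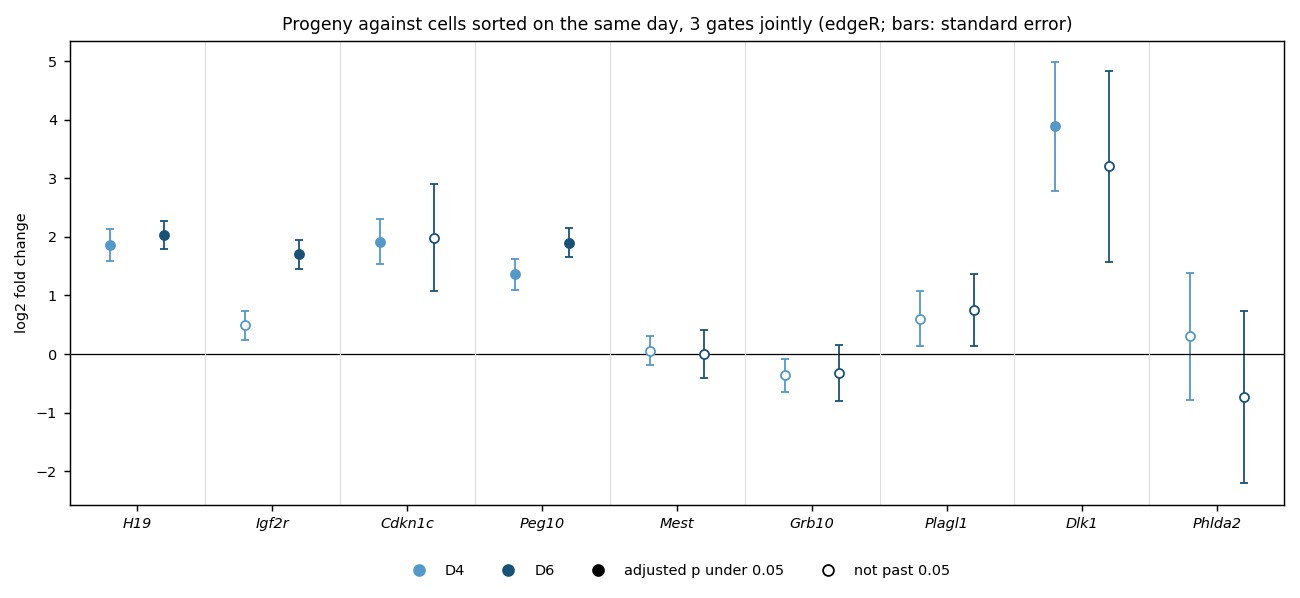
Log2 fold change of progeny against cells sorted on the same day (y axis) for the 9 measured genes at D4 and D6, over 3 gates jointly, with bars for the standard error and filled points for an adjusted p under 0.05. H19 is at 1.86 and 2.03 and Peg10 at 1.36 and 1.90, while Mest is at 0.06 at D4 and level with 0 at D6.

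Other imprinted genes and the rest of the IGF pathway were counted from lists. Of 57 other imprinted genes, 11 lie wholly inside another gene and had 0 counts, as did 1 more. In the D6 progeny, Sox1-FoxA2+ against Sox1+FoxA2-, 6.91% of all genes tested were called and 3.32% were called lower. Of the 43 other imprinted genes tested, 3 were called higher and 11 lower. Their median log2 fold change was -0.64 against -0.04 over all genes. The largest were Sfmbt2, a Polycomb-group gene (2.54 ± 0.33), Usp29 (-2.48 ± 0.31) and Rian, a non-coding RNA of the Dlk1 locus (-2.18 ± 0.39), with edgeR adjusted p of 2.6e-04, 1.5e-04 and 0.00395. Of 21 IGF-pathway genes tested, 4 were called lower and none higher, led by the binding proteins Igfbp3 (15000 normalised counts in the Sox1+FoxA2- progeny and 573 in the Sox1-FoxA2+ progeny), Igfbp7 (1820 and 255) and Igfbp2 (5450 and 794). Zfp57, a zinc finger protein that protects imprints, was at 1190 against 2370 (-1.05 ± 0.24, edgeR adjusted p = 0.0132), the 1 called gene of 5 that act in imprint maintenance.
At D4 of the progeny the same contrast gave 1 higher and 3 lower of 44 other imprinted genes (Sfmbt2 2.82, Copg2 -1.42 and Usp29 -1.34 among them) and 3 lower of 20 IGF-pathway genes (Igfbp5, Igfbp3 and Igfbp2). Of all genes tested there, 1.97% were called. Copg2 is the gene that overlaps the end of Mest, and reads in the shared 912 bases went to neither. In sorted D6 cells Airn was higher in Sox1-FoxA2+ cells, at 4490 against 1290 normalised counts (2.00 ± 0.51, edgeR adjusted p = 0.0347), while Igf2r, which shares 28354 bases with it on the opposite strand, was at 1990 against 2580 (-0.21 ± 0.48, edgeR adjusted p = 0.952). Igfbp2 was lower (439 against 3540). At D2 and D4 of the sorted cells none of either list was called, where 0.00491% and 0.266% of all genes tested were.
Against Sox1-FoxA2+ progeny at D6, the Sox1+FoxA2+ progeny had 7 other imprinted genes higher and 1 lower of 43 (Usp29 2.05, Ppp1r9a 2.01, Sfmbt2 -1.82) and 3 IGF-pathway genes higher of 21 (Igfbp3 3.73, Igfbp7 2.91, Igfbp2 1.44). In that comparison 4.63% of all genes tested were called. From D0 to D2, Airn rose from 63 to 654 normalised counts beside the rise of Igf2r, and Sgce, the neighbour of Peg10, from 264 to 1160 (edgeR adjusted p = 0.0132 and 0.0368).
From D2 to D6, Usp29 rose in Sox1-FoxA2- cells (203 to 3110), and in Sox1-FoxA2+ cells Ppp1r9a (7830 to 2000) and Smoc1 (8660 to 2600) fell, with 1 of 20 IGF-pathway genes higher (Irs1) and 3 lower (Igfbp2 and Igfbp5 among them). In these gates 0.0188% and 2.23% of all genes tested were called. Against sorted cells, the progeny had 6 of 45 other imprinted genes higher and none lower at D4 (Slc38a4, Zim1 and Peg3 the largest), and 6 higher and 2 lower of 42 at D6 (Snrpn -3.28, Slc38a4 2.86, Peg3 1.92). IGF-pathway genes were called higher for 3 of 21 at D4 and 8 of 21 at D6, and none lower. Of all genes tested, 7.45% were called at D4 and 13.6% at D6, with 4.55% and 7.81% called higher. Peg3, a growth regulator made from the paternal copy, averaged 156000 in the D6 progeny and 45200 in the sorted cells.

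Across the 19 conditions the levels of the 9 genes were compared as log2 mean normalised counts, with all conditions drawn from 1 cell line. Of the 36 pairs, 27 had a positive Pearson correlation, with a median of 0.415 and a range of -0.37 (Grb10 and Dlk1) to 0.86 (H19 and Peg10). No such values were computed for pairs of other genes, so these cannot show that the 9 vary together more than others. H19 followed Dlk1 at 0.84 and Plagl1 at 0.75, and Mest followed Grb10 at 0.66. Among 13921 genes with a mean of at least 100 normalised counts, the gene most like each member was Myh10 for H19 (0.937), Nfat5 for Igf2r (0.816), Chst10 for Grb10 (0.904), Tgfbi for Cdkn1c (0.854), Taf1 for Phlda2 (0.762), Slc1a3 for Plagl1 (0.898), Spred1 for Mest (0.939), Nrip1 for Peg10 (0.917) and Rbms1 for Dlk1 (0.914). The second for H19 was Lsp1 (0.927), which ends 80662 bases from H19 on the same chromosome, and the third was Sox9 (0.921). Of the 27 genes named by this measure for the 9, Lsp1 is the 1 on the chromosome of its match.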

How the data were processed

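Bulk RNA-seq libraries were made with a stranded SMART-Seq kit from a small equal number of sorted cells (sorted arm) or of replated progeny. The authors used STAR for alignment and featureCounts, with the GENCODE M21 annotation (GRCm38), for gene totals, with SAMtools also named, and deposited raw counts. Versions and counting options are not given in the sources used here. The deposited counts were taken as they stand. Of the counts from 1 to 20, 84.6% were even, which is what mates counted separately would give. The 92 spike-in lines had 0 counts (0%) and were left out.

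Gene symbols came from GENCODE M21. Groups came from the sample labels. Tests used edgeR 4.0.16 (quasi-likelihood, TMM scaling, robust estimation, low genes removed by filterByExpr at its defaults of 10 counts and 15 in total, two-sided) in R 4.3.3, with Benjamini-Hochberg adjustment over all genes tested and a threshold of 0.05. A comparison within 1 day used all sorted libraries, or all progeny libraries, of that day, a comparison over time used all sorted libraries of the gate or all 18 progeny libraries, and progeny against sorted used 18 libraries with gate and arm as terms. Levels are counts divided by DESeq2 1.42.0 size factors. The steps were tested on simulated data. Alternatives were DESeq2, RLE scaling, no filter, a replicate block, other sets of libraries and leaving out each library, plus 3 chosen after seeing the data (robust estimation off, bias-adjusted deviances, counts halved).

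Genes named were the members, up to 3 called genes with the largest change per list and comparison, and the 3 genes whose log2 mean level correlated best with each member over 19 conditions. The members and lists were chosen with earlier results of these data known. Same-numbered libraries were taken as paired where every correlation of their deviations over 5000 genes was above 0.1. This held for Sox1-FoxA2+ against Sox1+FoxA2- at D4 (0.204 to 0.505), D6 (0.123 to 0.198) and progeny D4 (0.275 to 0.557), for Sox1+FoxA2+ against Sox1+FoxA2- at D6 (0.114 to 0.244), against Sox1-FoxA2+ in the D6 progeny (0.116 to 0.371), and for D6 against D2 in Sox1-FoxA2- cells (0.232 to 0.370). The pairing comes from the data, since the labels give numbers alone.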

Additional observations from a re-analysis of the deposited data

How the results depend on the processing

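Of 31 calls among 189 tests of the 9 genes, none reversed under any alternative. Over the alternatives other than leaving out a library, 237 of 272 values of called genes kept the call, and 204 of 270 did with 1 library left out. 17 of the 31 calls held without any 1 library. The counts below are of members called, with the count of the reported fit given first where it was not 0. The share of all genes called with no filter is not given here. That fit gave far smaller p-values at nearly the same fold change. For H19 at D6 against D2 in Sox1-FoxA2- cells the edgeR adjusted p went from 0.725 to 1.4e-18 (log2 fold change 2.52 and 2.53). Calls made only with no filter are therefore weak support.

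For Sox1-FoxA2+ against Sox1+FoxA2-, the D2 count was 1 with no filter. The D4 count of 1 became 3 with DESeq2, 4 with no filter and 0 with all 57 libraries. The D6 count of 1 became 4 with DESeq2, 3 with no filter, 4 with the replicate block, and 2 with all 57 libraries, with only the groups compared and with bias-adjusted deviances, and ran from 1 to 2 with a library left out. The progeny D4 count of 3 became 5 with no filter, 7 with the block and 0 with all 57 libraries, and ran from 1 to 4. The progeny D6 count of 7 became 1 with all 57 libraries and ran from 4 to 6.

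For Sox1+FoxA2+ against Sox1+FoxA2- in the D6 progeny the count of 1 became 2 with DESeq2, with only the groups compared and with bias-adjusted deviances, 3 with no filter and 0 with all 57 libraries, and ran from 0 to 1. Against Sox1-FoxA2+ at D6 it was 2 with DESeq2 and with the block, 3 with no filter and 1 with all 57 libraries, and ran from 0 to 1. In the D6 progeny the count of 5 became 0 with all 57 libraries and 3 with only the groups compared, and ran from 2 to 4.

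Over time, the D2 against D0 count of 3 became 5 with no filter and 1 with all 57 libraries, and ran from 0 to 2. D6 against D2 in Sox1-FoxA2- cells gave 3 with DESeq2, 2 with no filter, and 1 with only the groups compared, with robust estimation off and with bias-adjusted deviances, and ran from 0 to 1. In Sox1-FoxA2+ cells the count of 3 ran from 2 to 3, in Sox1+FoxA2- cells no filter gave 1, and in Sox1+FoxA2+ cells no filter and bias-adjusted deviances gave 2, the block and all 57 libraries 1, with a range of 0 to 2. Progeny D6 against D4 gave, for Sox1-FoxA2+, 2 with DESeq2 and the block, 4 with no filter, and 1 with robust estimation off and with bias-adjusted deviances, and for Sox1+FoxA2- 1 with no filter and a range of 0 to 1. Progeny against sorted ran from 3 to 4 at D4 (count 4) and at D6 (count 3), where no filter gave 6. The difference between arms at D6 gave 1 with DESeq2 and with bias-adjusted deviances and 2 with no filter.

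The replicate block moved no other count of members by over 1.5 times. It ended 4 calls in comparisons where same-numbered libraries did not all correlate above 0.1 and were taken to share only a number: Igf2r in the D6 progeny contrast of Sox1-FoxA2+ with Sox1+FoxA2- (edgeR adjusted p = 0.0954), Dlk1 at D2 against D0 (0.0664), Mest at D6 against D2 in Sox1-FoxA2+ cells (0.0993) and Dlk1 in progeny against sorted at D4 (0.0621). For progeny against sorted, the correlations were taken over pairs of gates within and between the arms. Gates within an arm can still deviate together there. Over all genes, edgeR and DESeq2 calls were 61 and 622 for the D4 contrast of Sox1-FoxA2+ with Sox1+FoxA2-, 319 and 2103 at D6, 408 and 937 in the D4 progeny, 1456 and 2530 in the D6 progeny, 410 and 2064 for D2 against D0, 432 and 1969 for D6 against D2 in Sox1-FoxA2+ cells, and 1631 and 3914 (D4) and 3061 and 6038 (D6) for progeny against sorted. With all 57 libraries the progeny contrasts gave 53 genes at D4 and 263 at D6. The causes were not tested. Of 171 mean levels, 1 moved beyond its spread under TMM scaling and 22 per unshared exon base. Dlk1, Phlda2 and Cdkn1c had libraries at 0, which limits what their depth can show.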
